A study of Mus musculus with 12 samples.

Results

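Colon from mice given dextran sodium sulfate (DSS) together with the glucocorticoid dexamethasone (DXM) was compared with colon from untreated mice, gene by gene. The members of the comparison are the libraries whose treatment label reads DXM+DSS, 3 in number, and the 3 labelled control, which makes 6 of the 12 libraries of the series. All 16904 genes that passed a filter on low counts, of 54532 in the table, were tested. The remaining libraries came from a DSS group (called model here) and a group given DSS with rhynchophylline (Rhy), which entered the fit to help estimate the spread between samples, and the model group was also compared with the DXM group. Model libraries 1 and 2 differed far less than any other pair, with a common dispersion (the squared variation between libraries) of 0.00201 where the next smallest of all pairs was 0.0604, and key counts are also given with both taken as 1 library. The mice were male C57BL/6J of genotype WT, 5 weeks old. The DXM group received 4 mg/kg dexamethasone and DSS for acute colitis, and the control group received neither. The comparison with the control group holds the effects of both agents, and dexamethasone without DSS was given to no group. The labels do not say whether the libraries of a group come from separate animals, so each p-value measures the spread between samples only.

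DSS is a sulfated polymer that injures the colonic epithelium when mice drink it, and the injured mucosa then repairs itself by proliferation in the crypts. Dexamethasone binds the glucocorticoid receptor, a transcription factor that induces genes such as Fkbp5, Tsc22d3, Per1 and Sgk1 and restrains inflammatory cytokine genes. Steroid hormones also raise the epithelial sodium channel in the distal colon, where it takes sodium from the stool.

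The 6 libraries held between 15662589 and 17749716 counts, and levels are given as CPM, a gene's share of the library's counts scaled to a common size with edgeR's TMM factors. Colon epithelial markers were present in every library. Epcam, an adhesion protein of epithelial cells, had 2100.1, 2206 and 2152 CPM in controls 1 to 3 and 1672, 1278 and 1144 CPM in DXM libraries 1 to 3. The 10 epithelial markers summed to 27426, 39412 and 29822 CPM in the controls and 29719, 18044 and 15552 CPM in the DXM libraries, with Krt8, a keratin, the highest in control 1, DXM 2 and DXM 3 and Car1, a carbonic anhydrase, in the other 3 libraries. Of these 10 genes, 5 were lower in every DXM library than in every control library and 0 were higher. Over all genes tested these shares were 8.89% lower and 9.77% higher. The acinar markers Cpa1, Pnlip and Amy2a5 had 0 counts in all 6 libraries.

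Some libraries stood apart from their group. Hoxb13, a homeobox gene of the distal colon, had 155, 72.0 and 0.165 CPM in the controls and 221, 195 and 236 CPM in the DXM libraries. Control 3 was therefore almost without Hoxb13, while the other 5 libraries held it. The 6 B cell markers, of which Cd79a is the most abundant, summed to 181.7, 128.8 and 6.97 CPM in the controls and 148.2, 124.4 and 125.6 CPM in the DXM libraries, so control 3 was also low in B cell markers. Counts on mitochondrially encoded genes made up 21.0%, 17.0% and 6.33% of the controls and 25.7%, 7.88% and 7.48% of the DXM libraries. The 6 smooth muscle markers, of which Myh11 is the highest in all but control 1, summed to 6059, 3447 and 3127 CPM in the controls and 7360.4, 4877 and 8811 CPM in the DXM libraries. Ly6g, the most abundant of the 6 neutrophil markers, had 682, 33.8 and 2.42 CPM in the controls and 197, 204 and 270.4 CPM in the DXM libraries. The neutrophil calprotectin gene S100a8 stayed at or under 4.66 CPM in the 6 libraries, while Ly6g varied widely, from its highest level in control 1 to its lowest in control 3. The part of these library differences in the values below was not tested.

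**Figure D1:**
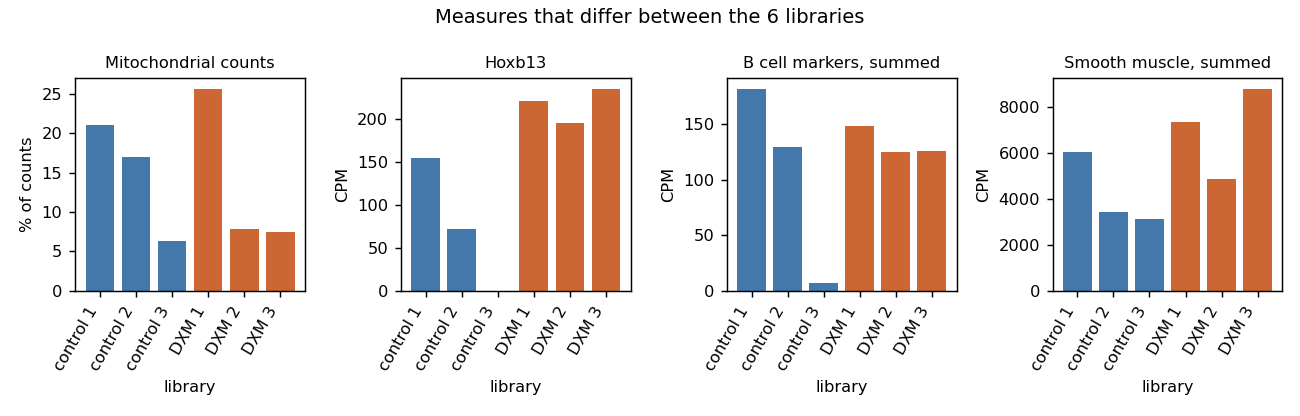
Share of counts on mitochondrially encoded genes, Hoxb13, and the summed B cell and smooth muscle markers in each of the 6 libraries. Control 3 is low in Hoxb13 and in B cell markers, and DXM 3 is highest in smooth muscle markers.

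Testing with edgeR's quasi-likelihood method gave 0 of the 16904 genes (0%) a Benjamini-Hochberg adjusted p under 0.05, with a minimum of 0.0971 over all genes. The adjusted p allows for the number of genes tested. Without that adjustment, 3189 genes (18.9%) had a p under 0.05, of which 1467 were higher (8.68%) and 1722 lower (10.2%) with DXM plus DSS. The median log2 fold change of all genes was 0.06. In 1651 genes (9.77%) every DXM library lay above every control library, and in 1503 (8.89%) every DXM library lay below. At least 2-fold differences with an unadjusted p under 0.05 numbered 564 higher and 596 lower. The direction of the balance depended on the scaling, since upper-quartile scaling gave 2053 higher and 1299 lower genes, and RLE scaling 1226 higher and 1933 lower.

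The number of genes past the same adjusted threshold depended on the tool. DESeq2 with all 12 libraries called 1164 genes at an adjusted p under 0.05, 339 higher and 825 lower, and with only the 6 libraries compared it called 488, 157 higher and 331 lower. The limma test on log2(FPKM + 1) called 0, with 3080.0 genes at an unadjusted p under 0.05. Single libraries also mattered. Without DXM 3 the unadjusted number was 1639 (717 higher, 922 lower), and without control 2 it was 2061 (936 higher, 1125 lower). Leaving out DXM 1 gave 4 adjusted calls in edgeR, and leaving out DXM 3 gave 1. Without control 3, the library low in Hoxb13 and B cell markers, 3514 genes had an unadjusted p under 0.05. With model 1 and 2 taken as 1 library the number was 2767. When the 3 libraries of the series with Hoxb13 under 5 CPM were left out, a choice made after the data were seen, the number was 4079.

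**Figure D2:**
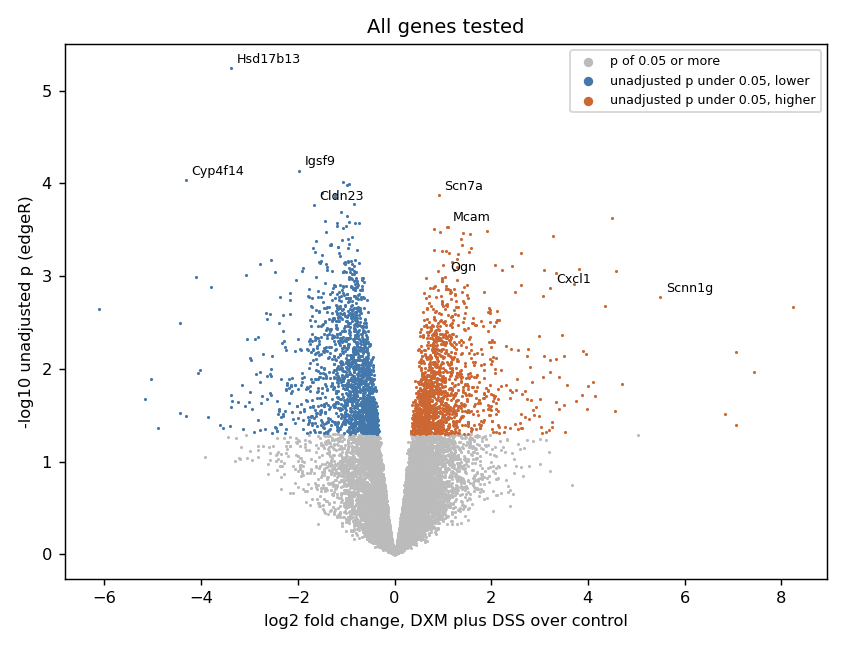
Log2 fold change of the DXM group over the control group against the unadjusted p of edgeR for every gene tested, with some genes named. Genes at an unadjusted p under 0.05 lie on both sides, and none passes the adjusted threshold. Cxcl1 passed the filter on low counts only through the DXM libraries, so its p carries no weight.

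The gene with the smallest p was Hsd17b13 (ENSMUSG00000034528, chromosome 5 of GRCm38 from 103955440 to 103977410), a lipid droplet enzyme of retinol and steroid metabolism. It had 114, 173 and 218 CPM in controls 1 to 3 and 10.97, 25.6 and 12.1 CPM in DXM libraries 1 to 3. All DXM libraries lay far below all controls, with DXM 2 the highest of them. Its log2 fold change of -3.37 (standard error 0.43, unadjusted p 5.75e-06) corresponds to a level 10.4 times lower, and edgeR's quasi-likelihood test gave a Benjamini-Hochberg adjusted p of 0.0971. The model libraries were between the groups at 66.8, 64.8 and 65.7 CPM. Cyp4f14 (ENSMUSG00000024292, chromosome 17 from 32905071 to 32917342), a cytochrome P450 that hydroxylates fatty acids and leukotrienes, had 68.4, 81.9 and 135 CPM in the controls and 8.71, 4.43 and 1.37 CPM in the DXM libraries. Its levels descended through DXM libraries 1, 2 and 3 and stayed below every control. It had a log2 fold change of -4.31 (standard error 0.75, unadjusted p 9.28e-05).

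Hsd17b13, Cyp4f14 and the genes that follow have the smallest p among genes lower in the DXM group that were picked for having no overlap between the groups. Igsf9, an immunoglobulin superfamily adhesion protein, had 162, 165 and 125 CPM in the controls and 57.0, 34.4 and 23.3 CPM in the DXM libraries, a log2 fold change of -1.98 (standard error 0.33, unadjusted p 7.3e-05). Nucb1, a calcium-binding protein of the Golgi, had 392, 388 and 376 CPM against 218, 182 and 199.8 CPM, a log2 fold change of -0.95 (standard error 0.17, unadjusted p 0.000101). Its 3 controls lay within a few percent of each other, and the DXM libraries were at about 2-fold less. Elf4, an ETS transcription factor active in immune cells, had 100.3, 91.7 and 74.0 CPM in the controls and 49.8, 41.0 and 42.9 CPM in the DXM group (log2 fold change -0.99, p 0.000103). Prdm2, a histone methyltransferase, had log2 fold change -0.83, p 0.000168, and Dennd1b, an activator of the GTPase Rab35, had log2 fold change -1.06, p 9.65e-05. Atp6v0a2, a subunit of the proton pump of acidic vesicles, had log2 fold change -1.24, p 0.000134. Clrn3, a tetraspan membrane protein, had log2 fold change -1.24, p 0.000139, and Ralgds, an exchange factor for Ral GTPases, had log2 fold change -1.10, p 0.000206. Susd6, a membrane protein with a sushi domain, had log2 fold change -1.49, p 0.000127.

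**Figure D3:**
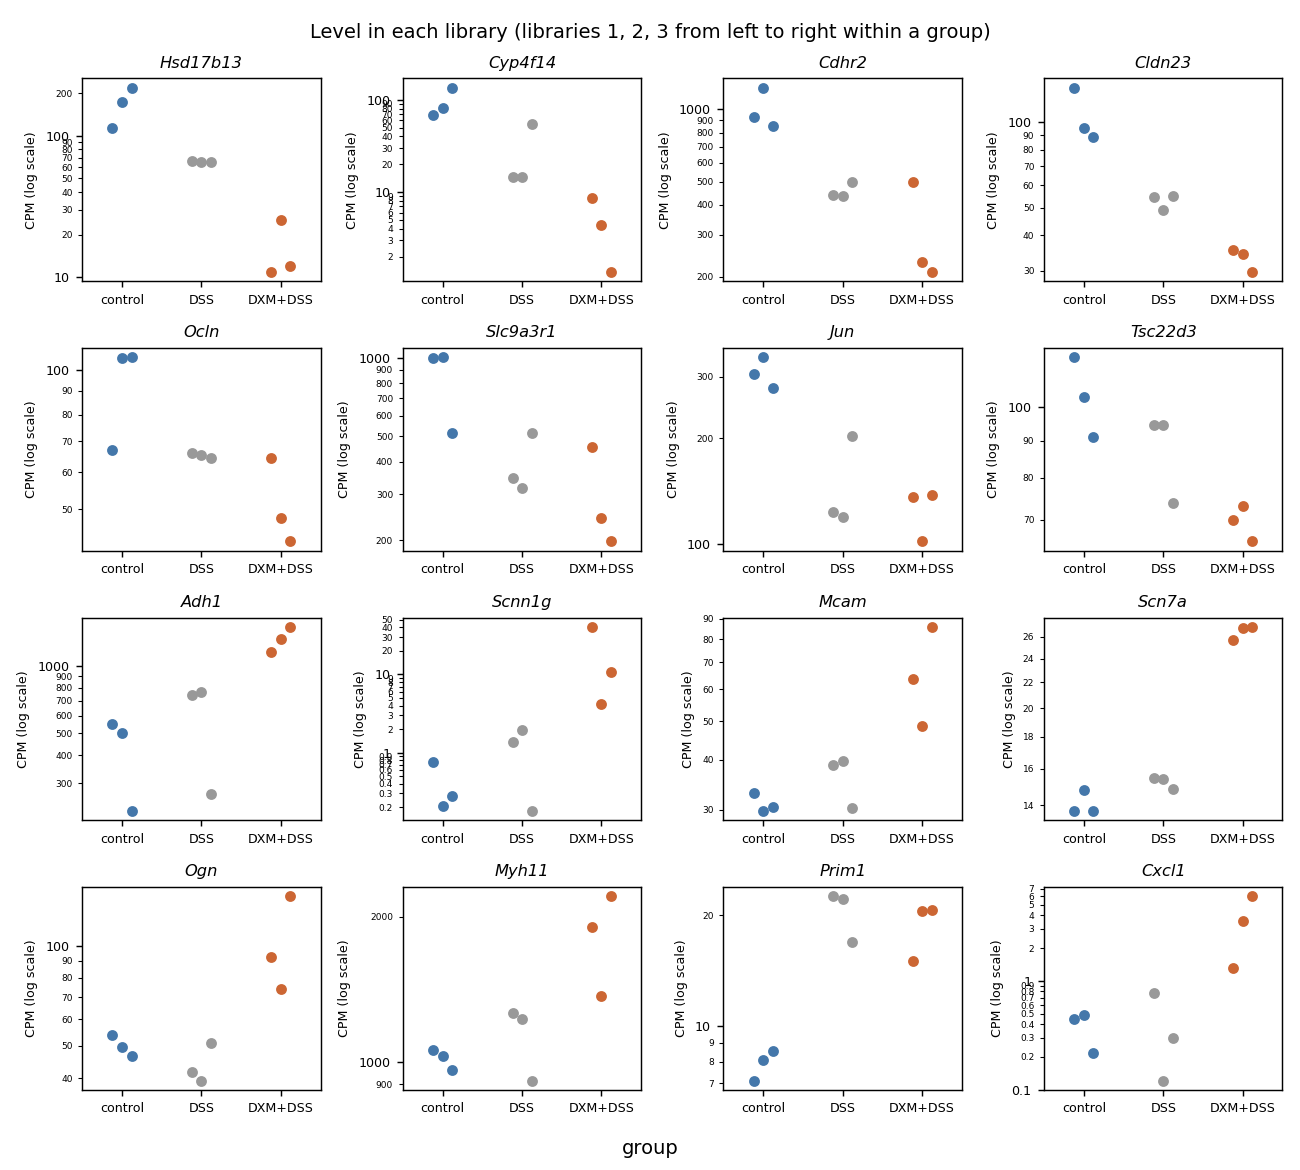
CPM of 16 genes in each library of the control, DSS and DXM plus DSS groups, on a log scale, with libraries 1, 2 and 3 from left to right. The genes shown were picked among those whose control and DXM libraries do not overlap.

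Drug and steroid metabolism held more lower genes than the background share. Of 40 genes tested, 19 were lower and 2 higher at an unadjusted p under 0.05, beside 10.2% and 8.68% of all genes, and the median log2 fold change was -1.28 beside 0.06. The number of lower genes was 10 without control 2 and 12 without DXM 2 or without DXM 3, and the number of higher genes was 1 when control 2, control 3, DXM 2 or DXM 3 was left out and with RLE scaling or the covariate Hoxb13. Cyp2c55, a cytochrome P450 and by mean FPKM the most abundant of them, had 193, 4537 and 2217 CPM in the controls and 953, 275 and 36.3 CPM in the DXM libraries. These ranges overlapped, since control 1 lay below DXM 1 and DXM 2 (log2 fold change -2.46, p 0.0855), and the log2 fold change was -1.52 without control 2 and -3.90 without DXM 1. Adh1, an alcohol dehydrogenase that also oxidizes retinol, went the other way with 547, 500.3 and 225 CPM in the controls and 1152, 1315 and 1492 CPM in the DXM libraries. Every DXM library exceeded every control, with a log2 fold change of 1.64 (standard error 0.52, unadjusted p 0.009). With Hoxb13 as a covariate the log2 fold changes were 1.07 for Adh1 and -1.60 for Cyp2c55.

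The brush border is the layer of microvilli through which enterocytes absorb. Of 30 brush border genes tested, 15 were lower and 0 higher at an unadjusted p under 0.05, beside 10.2% and 8.68% of all genes. Of the 30, 29 had a negative log2 fold change. The median was -0.98, and -1.73 without DXM 1, and the number of lower genes ranged from 12 to 16 when 1 library of the 2 groups was left out. Against the same controls the median was -1.12 for the model group and -0.29 for the Rhy group. For DXM against model the median was -0.255. There 2 genes were lower and 0 higher at an unadjusted p under 0.05, beside 2.8% and 4.89% of all genes, with 8 lower without DXM 1. Cdhr2, a protocadherin that links the tips of microvilli, had 927, 1233 and 856 CPM in the controls and 497, 232 and 210.2 CPM in the DXM libraries. DXM 1 was the highest of its group and still lay below the lowest control. Cdhr2 had a log2 fold change of -1.68 (standard error 0.35, unadjusted p 0.000497). Its partner Cdhr5 had 1648, 1467 and 875 CPM against 722, 369 and 415 CPM (log2 fold change -1.41, p 0.00214). Vil1, which bundles the actin of microvilli, had 1092, 1153 and 757 CPM in the controls and 735, 489.6 and 446 CPM in the DXM libraries (log2 fold change -0.85, p 0.005). For all 3 genes the DXM libraries were below the controls. Krt20, a keratin of mature surface cells, had 2271, 2687 and 1409 CPM against 1322, 836 and 371 CPM (log2 fold change -1.33, p 0.00679). Cdx2, a transcription factor that maintains intestinal identity, had 219, 271 and 433 CPM against 158, 139 and 56.5 CPM (log2 fold change -1.38, p 0.0338, and log2 fold change -0.74 with Hoxb13 as a covariate). In bulk tissue, fewer cells of a type and less RNA per cell cannot be told apart.

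Tight junctions seal the epithelium, and their proteins include claudins, occludin and cytoplasmic scaffolds. Among 28 genes tested, 13 were lower and 3 higher at an unadjusted p under 0.05, beside 10.2% and 8.68% of all genes. The higher members made up 10.7% of the list, near the share of all genes. The median log2 fold change was -0.64, and -0.41 without control 2. Without DXM 3 the number of lower genes was 8 and of higher genes 1, and without control 3 the number of higher genes was 5. It was 1 with Hoxb13 as a covariate. Cldn23 (ENSMUSG00000055976, chromosome 8 from 35824712 to 35826559), a claudin of surface colonocytes, had 132, 95.3 and 88.3 CPM in the controls and 35.5, 34.5 and 29.8 CPM in the DXM libraries. Its DXM libraries lay close together and well below the controls, with a log2 fold change of -1.66 (standard error 0.31, unadjusted p 0.000171). Cldn3, the member with the highest mean FPKM (454 in the DXM group), had 1813, 1149 and 798 CPM in the controls and 738, 476 and 539 CPM in the DXM libraries (log2 fold change -1.10, p 0.00466). Cldn7, a further sealing claudin, had 1616, 1386 and 953 CPM against 972, 729 and 654 CPM, and DXM 1 overlapped control 3 (log2 fold change -0.75, p 0.0131). Ocln, which encodes occludin, had 67.2, 106 and 106 CPM against 64.3, 47.9 and 42.6 CPM (log2 fold change -0.85, p 0.00259). Its lowest control was only just above DXM 1. Tjp1, which encodes the scaffold ZO-1, had 114, 186 and 122 CPM against 129, 93.1 and 95.6 CPM, with DXM 1 within the control range (log2 fold change -0.41, p 0.0771). Without control 2 its log2 fold change was -0.15. Cldn8, a claudin of the sodium-absorbing distal colon, was the exception among these, at 10.8, 7.30 and 19.5 CPM in the controls and 25.3, 49.2 and 81.4 CPM in the DXM libraries. All DXM libraries exceeded all controls, with a log2 fold change of 2.05 (standard error 0.56, unadjusted p 0.00347).

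Ion and water transport genes of the colonocyte comprised 27 tested genes, with a median log2 fold change of -0.46. At an unadjusted p under 0.05, 11 were lower and 0 higher, beside 10.2% and 8.68% of all genes. The number of lower genes was 7 without control 1 or without DXM 2, 5 without control 2, and 2 without DXM 3. The number higher was 1 without control 1 or without DXM 1, 3 without control 3 and 4 without the 3 libraries low in Hoxb13, and the median was -0.79 without DXM 2. Slc9a3r1, a scaffold that holds transporters at the apical membrane, had 999, 1005 and 517 CPM in the controls and 457, 243 and 198 CPM in the DXM libraries, a log2 fold change of -1.49 (standard error 0.36, unadjusted p 0.00153). Control 3 was nearest to the DXM group. Guca2a, which encodes the peptide guanylin, had 4249, 2629 and 1801 CPM against 1692, 1222 and 971 CPM (log2 fold change -1.16, p 0.0206). Aqp8, a water channel, had 2606, 1151 and 216 CPM against 679, 374 and 289.7 CPM, where control 3 lay below all DXM libraries (log2 fold change -1.57, p 0.0482), and the log2 fold change was -0.61 without control 1.

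Of 13 genes of the sodium channel axis tested, 9 had a negative log2 fold change, and the median was -0.58, or -0.13 without control 1 and -0.22 without control 3. At an unadjusted p under 0.05, 2 were higher and 4 lower, beside 8.68% and 10.2% of all genes. Upper-quartile scaling moved all genes from 1467 higher and 1722 lower to 2053 and 1299, and the list to 4 higher and 2 lower. The number of lower genes was 2 without control 3 or without DXM 3, and the number of higher genes was 4 without control 3. The channel has 3 subunits. Scnn1g (ENSMUSG00000000216, chromosome 7 from 121734479 to 121768475), which encodes the gamma subunit, had 0.749, 0.209 and 0.274 CPM in the controls and 40.8, 4.19 and 10.7 CPM in the DXM libraries. It was near absence in every control and reached its highest level in DXM 1, with no overlap. Its log2 fold change of 5.50 (standard error 1.36, unadjusted p 0.00169) is large but imprecise, as the standard error shows. The beta subunit gene Scnn1b had 3.52, 0.834 and 5.21 CPM against 25.9, 5.35 and 6.48 CPM, and control 3 was almost level with DXM 2 (log2 fold change 1.97, p 0.0517). Without DXM 1 its log2 fold change was 0.88. The alpha subunit gene Scnn1a, chosen after its values were seen, had 161, 63.3 and 51.2 CPM against 54.2, 53.6 and 52.9 CPM, with the controls on both sides of the DXM libraries (log2 fold change -0.78, p 0.162). Its log2 fold change was -0.10 without control 1 and -1.28 with Hoxb13 as a covariate. Nedd4l, a ubiquitin ligase that removes the channel from the membrane, had 240.1, 170.1 and 108 CPM against 124, 78.2 and 90.2 CPM (log2 fold change -0.82, p 0.0155; log2 fold change -0.51 without control 1).

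Of 32 glucocorticoid target genes tested, 10 were lower and 1 higher at an unadjusted p under 0.05, beside 10.2% and 8.68% of all genes. The targets had a median log2 fold change of -0.50. Against the same controls the median was -0.49 for the model group and -0.41 for the Rhy group, neither given dexamethasone. For DXM against model the median was -0.05. There 2 targets were higher and 0 lower at an unadjusted p under 0.05, beside 4.89% and 2.8% of all genes, with 3 lower without DXM 1. The number of lower genes was 4 without control 2, 5 without DXM 2, 6 without DXM 3 and 6 with upper-quartile scaling. Tsc22d3, which encodes the leucine zipper protein GILZ, had 117, 103 and 91.0 CPM in the controls and 69.9, 73.0 and 65.4 CPM in the DXM libraries. The DXM libraries were all below the controls (log2 fold change -0.58, p 0.0242). Per1, a clock gene, had 95.1, 79.6 and 77.5 CPM against 51.7, 56.4 and 71.4 CPM (log2 fold change -0.49, p 0.0487). Fkbp5, which encodes a chaperone of the receptor, had 166, 187 and 334 CPM against 147, 193 and 106 CPM (log2 fold change -0.62, p 0.174). Its ranges overlapped, with control 3 the highest. Sgk1, a kinase that acts on the sodium channel, had 126, 403 and 565 CPM against 317, 212 and 162 CPM (log2 fold change -0.66, p 0.157). Klf9, a transcription factor, had 12.8, 35.0 and 58.8 CPM against 18.1, 23.4 and 15.0 CPM (log2 fold change -0.92, p 0.0538). In Sgk1 and Klf9 control 1 was the lowest of all 6 libraries. Without control 3 the log2 fold changes were -0.27 for Fkbp5, -0.22 for Sgk1 and -0.37 for Klf9, and that of Sgk1 was -1.07 without control 1. With Hoxb13 as a covariate, those of Fkbp5 and Klf9 were -0.08 and -0.47. Mertk, a receptor for the uptake of dying cells, had 30.0, 78.9 and 52.6 CPM against 27.2, 15.0 and 12.0 CPM (log2 fold change -1.58, p 0.00461), and Anxa1, which encodes annexin A1, had 183, 125 and 114 CPM against 206, 219 and 316 CPM (log2 fold change 0.81, p 0.0492). Anxa1 was the only target of the list that was higher at an unadjusted p under 0.05, with a log2 fold change of 0.42 when Hoxb13 was a covariate. The number of higher targets was 0 without control 2, control 3 or DXM 3 and with RLE scaling or the covariate, and 2 without DXM 1 or without the 3 libraries low in Hoxb13.

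The promoters of Sgk1 and Tsc22d3 are shown because both genes are used as readouts of the receptor. The glucocorticoid receptor binds pairs of the 6-base site AGAACA, and each such site on either strand (AGAACA or TGTTCT) is in capitals in the 250 bases before the start (RefSeq, GRCm38.p6, Sgk1 at chr10:21993640-21993889 on the plus strand and Tsc22d3 at chrX:140600523-140600772 on the minus strand).
Sgk1: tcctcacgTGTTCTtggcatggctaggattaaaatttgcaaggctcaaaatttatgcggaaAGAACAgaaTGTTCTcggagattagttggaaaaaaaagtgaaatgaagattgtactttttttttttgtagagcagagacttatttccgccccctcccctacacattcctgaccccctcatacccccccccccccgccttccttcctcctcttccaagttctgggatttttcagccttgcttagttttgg
Tsc22d3: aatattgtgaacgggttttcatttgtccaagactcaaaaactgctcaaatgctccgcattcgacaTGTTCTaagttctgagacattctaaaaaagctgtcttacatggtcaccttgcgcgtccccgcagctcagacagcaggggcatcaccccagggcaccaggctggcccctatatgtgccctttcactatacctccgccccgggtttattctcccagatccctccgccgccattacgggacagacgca
RefSeq lists 6 promoters for Sgk1, 3 of them with the site, and 3 for Tsc22d3, 1 of them with it, and the sequence shown for each gene is one that carries it. The Sgk1 promoter shown holds 3 AGAACA sites, of which 2 form the spaced pair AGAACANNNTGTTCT, and the Tsc22d3 promoter shown holds 1. The AGAACA site occurred in 6 of 40 promoters (15.0%) of the 27 target genes matched of 32, and in 5284 of 32851 promoters (16.1%) of that length in all. The spaced pair occurred in 3 of the 32851. Among the 12 genes with the smallest p on each side, 1 of 13 promoters of the 11 matched higher genes and 2 of 15 promoters of the 9 matched lower genes held the AGAACA site. A match describes the sequence only.

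Interferons induce antiviral genes, and immediate early genes respond to stimuli within minutes. Of 47 interferon-stimulated genes, 20 were lower and 0 higher at an unadjusted p under 0.05, beside 10.2% and 8.68% of all genes. The 47 had a median log2 fold change of -0.70. Only 3 of them were lower without control 2, where the median was -0.41, and only 3 without DXM 3, and 12 were lower with upper-quartile scaling. The number higher was 2 without control 1 and 1 without DXM 1. Ifi44, an interferon-induced cytoplasmic protein, had 24.9, 33.2 and 20.5 CPM in the controls and 10.3, 10.6 and 4.20 CPM in the DXM libraries, with no overlap (log2 fold change -1.65, p 0.00694). Isg15, a ubiquitin-like modifier, had 191, 177 and 63.5 CPM against 104, 74.7 and 34.9 CPM, and control 3 lay below DXM 1 and DXM 2 (log2 fold change -1.02, p 0.0394). Among 26 immediate early genes, 7 were lower and 2 higher, beside the same 10.2% and 8.68% of all genes. The higher members made up 7.69% of the list, near the share of all genes. The number lower was 4 without DXM 2. The number higher was 4 without control 1, without DXM 1 or with upper-quartile scaling, 8 without DXM 2 and 1 without DXM 3. Jun, a subunit of the transcription factor AP-1, had 306, 341 and 279 CPM in the controls and 135, 102 and 138 CPM in the DXM libraries. The groups were well apart, with a log2 fold change of -1.31 (standard error 0.27, unadjusted p 0.000459). Klf4, a transcription factor of differentiated epithelial cells, had 444, 736 and 673 CPM against 403, 299.8 and 312 CPM (log2 fold change -0.87, p 0.00613). The orphan nuclear receptor gene Nr4a3 went the other way at 0.899, 0.974 and 1.81 CPM against 6.65, 1.98 and 32.6 CPM (log2 fold change 3.46, p 0.00428), led by DXM 3, without which its log2 fold change was 1.79. Nr4a1, of the same family, had 25.2, 18.6 and 39.9 CPM against 25.4, 25.5 and 221 CPM. Its log2 fold change of 1.70 was -0.13 without DXM 3, so its difference rested on that library.

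Fatty acid oxidation and ketogenesis genes were lower in 7 of 30 (23.3%) at an unadjusted p under 0.05, beside 10.2% of all genes. Of these 30, 0 were higher, beside 8.68% of all genes, with a list median of -0.63 in log2 fold change. The number lower was 15 without control 1 and 4 without control 2, without control 3, without DXM 2 or without DXM 3. With Hoxb13 as a covariate in the fit the median was -0.30. Ppard, a nuclear receptor for fatty acids, had 162, 172 and 154 CPM in the controls and 103, 90.4 and 86.9 CPM in the DXM libraries, a log2 fold change of -0.80 (standard error 0.19, unadjusted p 0.00106). No DXM library reached a control.

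**Figure D4:**
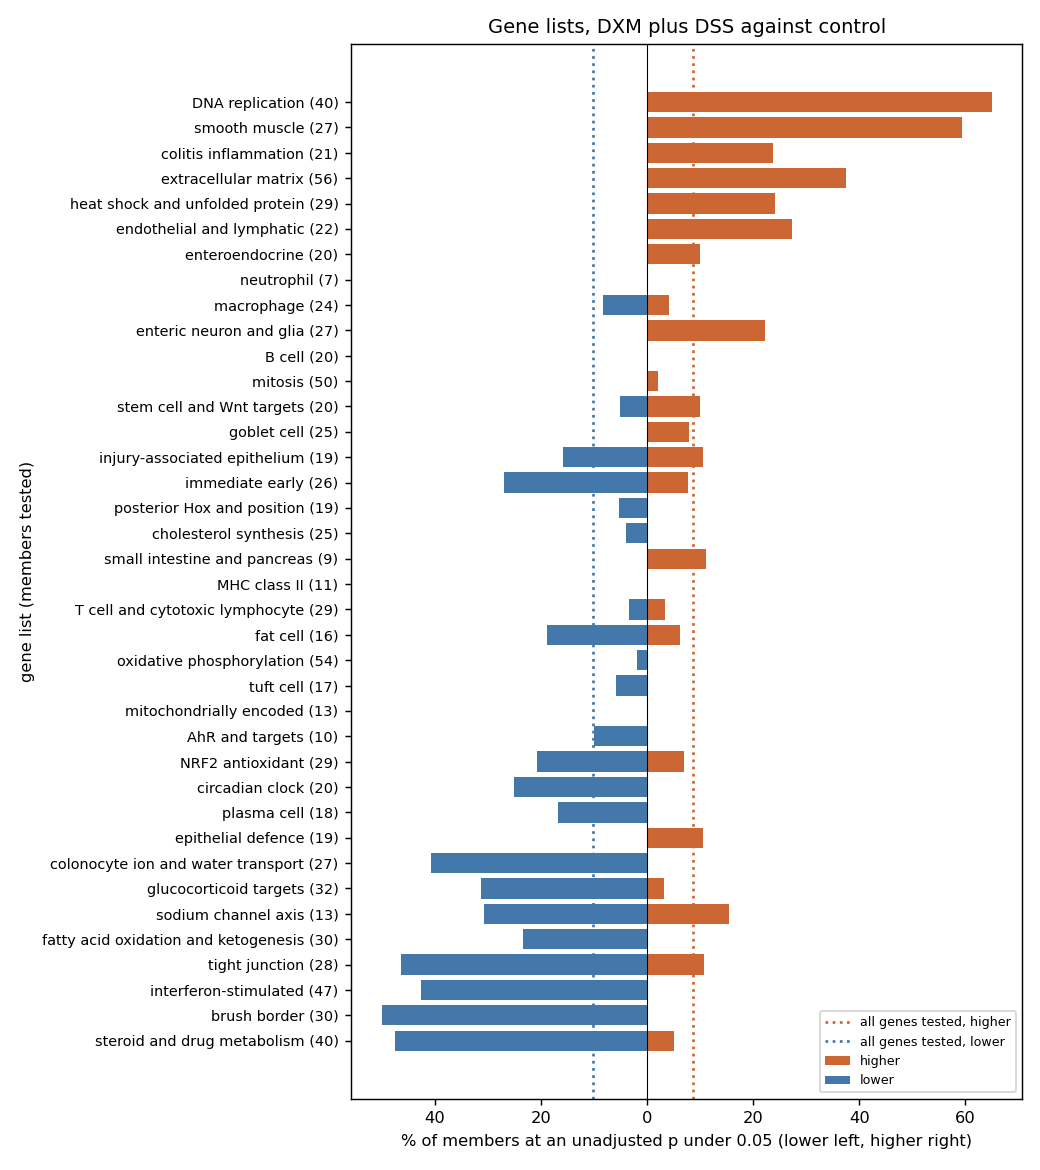
Share of each of the 38 gene lists at an unadjusted p under 0.05, lower in the DXM group to the left and higher to the right, with the same shares of all genes tested as dotted lines and the members tested in brackets.

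The DNA replication list holds genes of origin licensing and of the replication fork. Of 40 genes tested, all 40 had a positive log2 fold change, with a median of 0.92. At an unadjusted p under 0.05, 26 were higher, beside 8.68% of all genes. In 11 of the 40 every DXM library lay above every control, beside 9.77% of all genes. The number higher at that p was 9 without control 1, 13 without control 2, 8 without DXM 2 and 14 without DXM 3, and 14 with Hoxb13 as a covariate. Prim1, the catalytic subunit of primase, had 7.11, 8.07 and 8.56 CPM in the controls and 15.0, 20.5 and 20.6 CPM in the DXM libraries, a log2 fold change of 1.24 (standard error 0.33, unadjusted p 0.00253). The model libraries stood at 22.5, 22.1 and 16.9 CPM, near the DXM group. Pcna, the sliding clamp of DNA polymerase, had 26.7, 44.6 and 64.2 CPM against 39.8, 102 and 95.1 CPM, and DXM 1 lay below 2 of the controls (log2 fold change 0.80, p 0.0545). Its log2 fold change was 0.54 without control 1. Of 50 mitosis genes, 1 was higher at an unadjusted p under 0.05 (2.0%), below the 8.68% of all genes, and 42 had a positive log2 fold change. The number higher was 4 without control 3 or without DXM 1 and 7 without the 3 libraries low in Hoxb13. It was 0 without control 2, without DXM 2 or with Hoxb13 as a covariate, and without DXM 2 there was 1 lower gene. The median was 0.24, and 0.04 without control 2, 0.60 without control 3, 0.48 without DXM 1, -0.31 without DXM 2 and 0.37 without DXM 3. The proliferation marker Mki67 had 157, 58.3 and 87.4 CPM against 53.4, 159 and 76.3 CPM, with DXM 2 alone near the highest control (log2 fold change -0.07, p 0.882). Its direction changed with the library left out, from -0.64 without DXM 2 to 0.40 without control 1, and the number of mitosis genes higher was 2 with upper-quartile scaling.

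Smooth muscle forms the wall of the colon, and extracellular matrix its connective tissue. All 56 extracellular matrix genes tested had a positive log2 fold change, with a median of 0.67. At an unadjusted p under 0.05, 21 were higher and 0 lower, beside 8.68% and 10.2% of all genes. In 14 of the 56 every DXM library lay above every control, beside 9.77% of all genes, and without DXM 3, 11 were higher at that p. Of 27 smooth muscle genes, 16 were higher and 0 lower, beside the same 8.68% and 10.2%. Of these 27, 24 had a positive log2 fold change, and the median was 0.71. In 10 of the 27 every DXM library lay above every control, beside the same 9.77%. At that p, 7 were higher without control 2, 10 without control 3 and 5 without DXM 3, and 1 was lower without control 1. Of 22 endothelial and lymphatic genes, all 22 had a positive log2 fold change, with a median of 0.54. At that p, 6 were higher and 0 lower, beside the same 8.68% and 10.2%. There 3 were higher without control 2, 2 without control 3 or without DXM 3, 1 without DXM 1 (median 0.28) and 10 without DXM 2 (median 0.89), and in 0 of the 22 did every DXM library lie above every control, beside that 9.77%. With Hoxb13 as a covariate, 12 matrix genes (median 0.43), 8 smooth muscle genes and 1 endothelial gene were higher. Ogn, a small leucine-rich proteoglycan, had 53.8, 49.7 and 46.6 CPM in the controls and 92.7, 73.8 and 141 CPM in the DXM libraries. The groups did not overlap, and DXM 3 was the highest (log2 fold change 1.03, p 0.00102). Col3a1, a fibrillar collagen, had 463, 231 and 313 CPM against 509, 371 and 828 CPM (log2 fold change 0.76, p 0.136), and Col1a1 had 136, 62.4 and 110.0 CPM against 169.8, 99.6 and 205 CPM (log2 fold change 0.62, p 0.189). Both collagens overlapped between the groups, with log2 fold changes of 0.39 and 0.39 without DXM 3 and of 0.36 for Col1a1 without control 2. With the covariate they were 0.36 and 0.25. Myh11, the smooth muscle myosin, had 1057, 1029.5 and 962 CPM against 1909, 1372 and 2206 CPM, a log2 fold change of 0.85 (standard error 0.24, unadjusted p 0.00383). Acta2, smooth muscle actin, had 1136, 686 and 518 CPM against 1641, 1025 and 1808 CPM, with control 1 above DXM 2 (log2 fold change 0.93, p 0.0107). Casq2, a calcium store protein, had 1.87, 1.32 and 1.76 CPM against 7.13, 2.51 and 9.98 CPM (log2 fold change 1.98, p 0.00251). The part that the amount of muscle in the tissue pieces plays in these values was not tested.

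Among the genes higher in the DXM group, picked in the same way, the smallest p belonged to Scn7a (ENSMUSG00000034810, chromosome 2 from 66673425 to 66784914), a sodium channel of glia and neurons. It had 13.7, 14.8 and 13.7 CPM in the controls and 25.7, 26.8 and 27.0 CPM in the DXM libraries. The libraries of each group were close to each other, with a log2 fold change of 0.91 (standard error 0.16, unadjusted p 0.000134). Mcam, an adhesion protein of vessels and muscle, had 33.1, 29.8 and 30.5 CPM against 63.8, 48.5 and 85.9 CPM (log2 fold change 1.08, p 0.000293). Smpx, a small muscle protein, had log2 fold change 1.90, p 0.000325. Kcnd3, a potassium channel, had log2 fold change 1.42, p 0.000346. Tacr2, the neurokinin receptor of gut muscle, had 3.22, 2.09 and 4.72 CPM against 9.19, 10.4 and 10.6 CPM (log2 fold change 1.58, p 0.000498). Npy4r, a receptor for pancreatic polypeptide, had log2 fold change 1.55, p 0.000349, and Tmeff1, a transmembrane protein with follistatin domains, had log2 fold change 1.39, p 0.000461. Others were Kat2a, a histone acetyltransferase (log2 fold change 0.81, p 0.000306), Rps21, a ribosomal protein (log2 fold change 0.93, p 0.000332), Prdx4, a peroxidase of the endoplasmic reticulum (log2 fold change 1.38, p 0.000402), and Nt5c3b, a nucleotidase (log2 fold change 1.11, p 0.000296). At an unadjusted p under 0.05, 6 of 27 enteric neuron and glia genes were higher and 0 lower, beside 8.68% and 10.2% of all genes. The number higher was 2 without control 2 and 3 without DXM 1, without DXM 3, with RLE scaling or with the covariate Hoxb13.

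Of 30 colitis inflammation genes, 21 passed the filter. At an unadjusted p under 0.05, 5 of these were higher and 0 lower, beside 8.68% and 10.2% of all genes. Without control 3, 2 were higher and 1 lower, and without DXM 3, 3 were higher. Cxcl1, a neutrophil-attracting chemokine, had 0.449, 0.487 and 0.220 CPM in the controls and 1.30, 3.52 and 5.98 CPM in the DXM libraries. It passed the filter on low counts only through the DXM libraries, so a test of its difference carries no weight and is not given. Cxcl1 is 1 of the 5 higher genes, so that count rests in part on this test. At these levels it had a log2 fold change of 3.22. Socs3, a brake on cytokine signaling, had 39.1, 22.8 and 15.1 CPM against 38.3, 55.6 and 94.2 CPM, and control 1 lay above DXM 1 (log2 fold change 1.29, p 0.0364). With Hoxb13 as a covariate the log2 fold changes were 0.71 for Socs3, 0.23 for Il1b and 1.64 for Reg3b. Il1b, which encodes interleukin-1 beta, had 2.32, 2.57 and 3.79 CPM against 1.99, 4.77 and 8.46 CPM (log2 fold change 0.81, p 0.257, and 0.23 without DXM 3), and Lcn2, an antibacterial lipocalin, had 1.72, 1.81 and 0.439 CPM against 1.44, 1.54 and 1.57 CPM. Reg3b, an antibacterial lectin, had 126, 14.1 and 77.2 CPM in the controls and 103, 1276 and 1.98 CPM in the DXM libraries, while the model libraries had 4737, 4829 and 1116 CPM. DXM 2 alone was high, and without it the log2 fold change was -0.47 in place of 2.67. Of 29 heat shock and unfolded protein genes, 7 were higher and 0 lower, beside the same 8.68% and 10.2% of all genes. The number higher was 1 without control 2, 15 without DXM 1 and 2 without DXM 3. In that list 1 gene was lower without control 1 or without control 3, and 11 were higher with upper-quartile scaling. Hspe1, a mitochondrial chaperonin, had 55.0, 70.7 and 99.2 CPM against 98.9, 179.7 and 156 CPM (log2 fold change 0.95, p 0.00345), and Hspa8, a cytosolic chaperone, had 1036, 762 and 673 CPM against 749.5, 1278 and 2400.0 CPM (log2 fold change 0.84, p 0.0611), which was 0.30 without DXM 3. Cela1, the only acinar marker with enough counts to be tested, had 92.1, 82.7 and 51.8 CPM against 156, 179.8 and 288 CPM, although Cpa1 was at 0 (log2 fold change 1.46, p 0.00379).

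The DXM and model groups both received DSS, and the comparison between them uses the same DXM libraries as the one with the controls. For DXM against model, edgeR's quasi-likelihood test gave 0 genes with a Benjamini-Hochberg adjusted p under 0.05 (smallest 0.622), and 827 were higher (4.89%) and 473 lower (2.8%) at an unadjusted p under 0.05, 1300.0 in all. Without DXM 3 the number was 537, and with model 1 and 2 taken as 1 library it was 736. DESeq2 passed 646 genes at the adjusted threshold with these 6 libraries and 54 with all 12. Of the 56 extracellular matrix genes, 41 were higher than in the model group at an unadjusted p under 0.05, and the median log2 fold change was 1.07. The number was 26 with model 1 and 2 as 1 library, 26 without DXM 1 and 21 without DXM 3, and the median with model 1 and 2 as 1 library was 1.11. Hsd17b13 had a log2 fold change of -2.02 (unadjusted p 0.000395), Scn7a 0.80 (p 0.000405), Ogn 1.22 (p 0.000283) and Cldn23 -0.67 (p 0.0461). Other genes described above had an unadjusted p over 0.05 against the model group. Among them were Dennd1b (-0.05, p 0.796), Igsf9 (-0.54, p 0.123), Cdhr2 (-0.55, p 0.140), Jun (-0.25, p 0.371) and Kat2a (0.19, p 0.247). DNA replication genes had a median of -0.31 in that comparison, -0.06 without DXM 1 and -0.52 without DXM 2. Their median against the control group was 0.92 for DXM and 1.25 for the model group, values that share the control libraries.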

How the data were processed

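Colon mRNA of 12 libraries was sequenced. Per the labels, the authors aligned reads to mm10 with HISAT2 2.0.5 and made the deposited gene counts with featureCounts 1.5.0-p3. The deposited FPKM values are fragments per gene length and library size, with a library scaling by the authors, whose processing notes also name DESeq2 1.16.1. All count columns were matched to samples. Total counts in controls 1 to 3 were 15662589, 16462927 and 16601454 and in DXM libraries 1 to 3 were 16072006, 17749716 and 17034514.

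Counts of all 12 libraries were fitted on group means in R 4.3.3 with edgeR 4.0.16 (filterByExpr with a minimum count of 10.0, TMM factors, quasi-likelihood F test), and p was adjusted by Benjamini-Hochberg over 16904 genes. DESeq2 1.42.0 and limma 3.58.1 on log2 FPKM were alternatives, 18 planned and 2 added after the data were seen. The members and lists were chosen with earlier results of these data known. Genes named, apart from cell type markers such as Epcam, include those with the smallest p (12 in each direction, protein-coding, mean of at least 5 CPM, groups not overlapping). Others are the 2 most abundant and the smallest-p members of gene lists, and a set of genes of colitis and of the glucocorticoid response. Of the 12 genes with the smallest p on the higher side 11 are described, all 12 enter the promoter counts, and Scnn1a was added after its values were seen. Values of 38 lists were computed, and the 18 described, with their genes, were picked from these after their values were seen.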

Additional observations from a re-analysis of the deposited data

How the results depend on the processing

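Of the 77 named genes followed through the alternatives, which do not include markers such as Epcam, Krt8 and Car1, 69 kept their direction under all 20. The quasi-likelihood test of edgeR on all libraries gave 0 adjusted calls, but 13 when genes with any count were kept, and DESeq2 called 1164 with all libraries and 488 with the 6 compared. Leaving out 1 library gave 0 to 4 adjusted calls and 1639 to 4075 genes at an unadjusted p under 0.05, 717 to 1794 of them higher and 922 to 2281 lower. With only the 2 groups in the fit, 884 were higher. For DXM against model, 2 genes passed the adjusted threshold with only these groups, 2 without the 3 libraries low in Hoxb13, 2 in limma on log2(FPKM + 0.1), 54 in DESeq2 with all libraries and 646 with the groups alone. The unadjusted number was 2514 with only these groups, 736 with model 1 and 2 as 1 library, 2622 in DESeq2 with the groups alone, and 537 to 1834 with 1 DXM or control library left out, the controls entering only through the spread. No model library was left out singly, and model 3 was among the 3 libraries low in Hoxb13.

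Log2 fold changes that turned, with 1 library left out, ranged over -0.13 to 2.14 for Nr4a1, -0.64 to 0.40 for Mki67, -1.07 to 1.37 for S100a8, -0.24 to 0.51 for Lcn2, -0.47 to 3.33 for Reg3b, -0.36 to 0.79 for Cd79a and -0.69 to 3.63 for Ly6g. With Hoxb13 as a covariate they were -0.96 for S100a8, -0.12 for Lcn2 and -0.44 for Cd79a. The value of -0.16 for Hoxb13 itself follows from its use as the covariate, and it turned in no other alternative. Without the 3 libraries low in Hoxb13 they were -0.27 for S100a8, -0.24 for Lcn2 and -0.36 for Cd79a. Mki67 was at 0.0029 with upper-quartile scaling, and Ly6g at 2.33 and 2.47 in limma on log2(FPKM + 1) and log2(FPKM + 0.1). List medians that turned ranged over -0.28 to 0.90 for B cell, -0.18 to 0.27 for immediate early, -0.31 to 0.60 for mitosis with 1 library left out. The B cell median was -0.29 with the covariate and -0.29 without the 3 libraries. The cause was not tested.

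Whether samples of the same number are paired is not stated, and the values here cannot decide it. A replicate block on them gave 3199 genes at an unadjusted p under 0.05 and 0 adjusted calls, and a log2 fold change of 0.98 for Ly6g. Control and DXM libraries of the same number correlated at 0.0501, -0.0608 and -0.0119, and those of different numbers at -0.228 to 0.279.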
